A study of Homo sapiens with 6 samples.

Results

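The NRF2 and glutathione antioxidant genes described here are 37 genes chosen by name, beside 18132 genes measured in all: the regulators NFE2L2 and KEAP1, classical NRF2 targets, and the enzymes that make, use and recycle glutathione and thioredoxin. A gene counted as measured where the platform annotation gave a probe set to it alone, which held for 36 of the 37 genes and 89 of 44988 single-gene probe sets. SOD2 was the exception: its 4 probe sets also carry the symbol of an overlapping transcript, so it was not analysed here. Each gene is represented by its brightest probe set, meaning the highest mean over all arrays, and other probe sets are described where their groups did not overlap, with some more for context.

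The cells were LX-2, an immortalised human hepatic stellate cell line, a single line without the other cells of the liver. Both groups were grown in serum-containing medium and then kept without serum for 12 h. The control group (3 samples) then received 0 ng/ml and the BMP9 group (3 samples) 50 ng/ml recombinant human BMP9, the GDF2 protein, for 24 h, and each sample was measured on 1 Affymetrix 3′ array. The labels call the samples biological replicates without naming separate cultures, so a p-value reflects only how these samples scatter, which may be technical. In bulk RNA, fewer cells expressing a gene and less of its RNA per cell cannot be told apart.

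NRF2, encoded by NFE2L2, is a transcription factor that KEAP1 holds in the cytoplasm and marks for degradation. When oxidants or electrophiles modify KEAP1, NRF2 accumulates, pairs with a small MAF protein and binds antioxidant response elements in genes for detoxification, glutathione synthesis and NADPH supply. Because this control acts mainly on the NRF2 protein, the RNA of target genes such as NQO1, GCLM and HMOX1 is the usual readout of the pathway. In stellate cells, oxidant stress is a known companion of activation.

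All values are on the log2 scale of the deposited table, 1 per probe set. A difference is the BMP9 mean minus the control mean, and its standard error (SE) is the moderated one from limma. A gene was called when its limma p-value, adjusted over all 18132 genes by the Benjamini-Hochberg method, was under 0.05. The arrays were alike in their medians (3.55 to 3.57) and in Pearson's r across genes (0.991 to 0.995 over all pairs), and known targets of the agent rose: SMAD6 by 3.01 (limma adjusted p = 3.97e-07) and ID3 by 1.63 (limma adjusted p = 8.65e-05). ID1 differed by 0.14 in its brightest probe set and by 3.21 in another (limma adjusted p = 1.55e-05 over probe sets), so a brightest probe set can miss a change. Of the stellate cell and fibroblast markers 12 of 18 had a mean value of at least 5, with VIM at 11.4 and COL1A1 at 9.76, while ACTA2 stood at 3.97 and FAP at 2.26. The mean level of this list was 5.98 to 6.13 on the control arrays and 5.88 to 5.95 on the BMP9 arrays, with COL3A1 and PDGFRA called lower. The corresponding ranges were 3.83 to 3.94 and 3.88 to 3.93 for 9 hepatocyte markers, 4.16 to 4.25 and 4.19 to 4.27 for 8 endothelial ones, 3.88 to 3.91 and 3.86 to 3.99 for 9 macrophage and leukocyte ones, and 3.40 to 3.55 and 3.50 to 3.58 for 5 cholangiocyte ones. A mean of at least 5 was also reached by 2 hepatocyte, 3 endothelial, 2 macrophage and leukocyte and 0 cholangiocyte markers, with CD68 at 6.91. None of the genes in these 4 lists was called. Whether the stellate cell marker level bears on the results below was not tested.

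The array's own spiked controls were lower on the BMP9 arrays, by 0.21 for the hybridisation controls and by 0.53 for the poly-A controls. Scaling the arrays to them moved the median difference of all genes from 0.014 to 0.23 and 0.55. All 13 antioxidant genes with a negative difference turned positive with poly-A scaling, and all but GSR and GPX4 did so with hybridisation scaling. Directions below are therefore on the deposited scale, relative to those shifts.

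Of the 36 antioxidant genes measured, NQO1 rose and 0 fell, against a background of 0.684% of all genes called (0.232% higher and 0.452% lower). The median difference was 0.042 over the 36 genes and 0.014 over all genes. Of the 36 differences 23 were positive (63.9%), beside 54.7% of all genes. In 8 of the 36 genes the 3 BMP9 arrays did not overlap the 3 control arrays, a share of 22.2% beside 18.8% of all genes. Of these 8, NQO1, TXN, GPX1 and SOD3 were higher and NFE2L2, HMOX1, GSR and GPX4 lower, where 10.3% of all genes did not overlap on the higher side and 8.49% on the lower side. An unadjusted p under 0.05 was found for 6 of the 36 genes (16.7%) and 12.9% of all genes. The shares without overlap and with an unadjusted p under 0.05 were near the background. On the deposited scale, the 95% interval of the difference lay wholly between -0.5 and 0.5 for 33 of the 36 genes. The exceptions were NQO1, GSR and PGD. Each interval covers the chosen probe set only, and the 33 include dim ones, such as those of GCLM and TXN, not known to be above background.

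**Figure D1:**
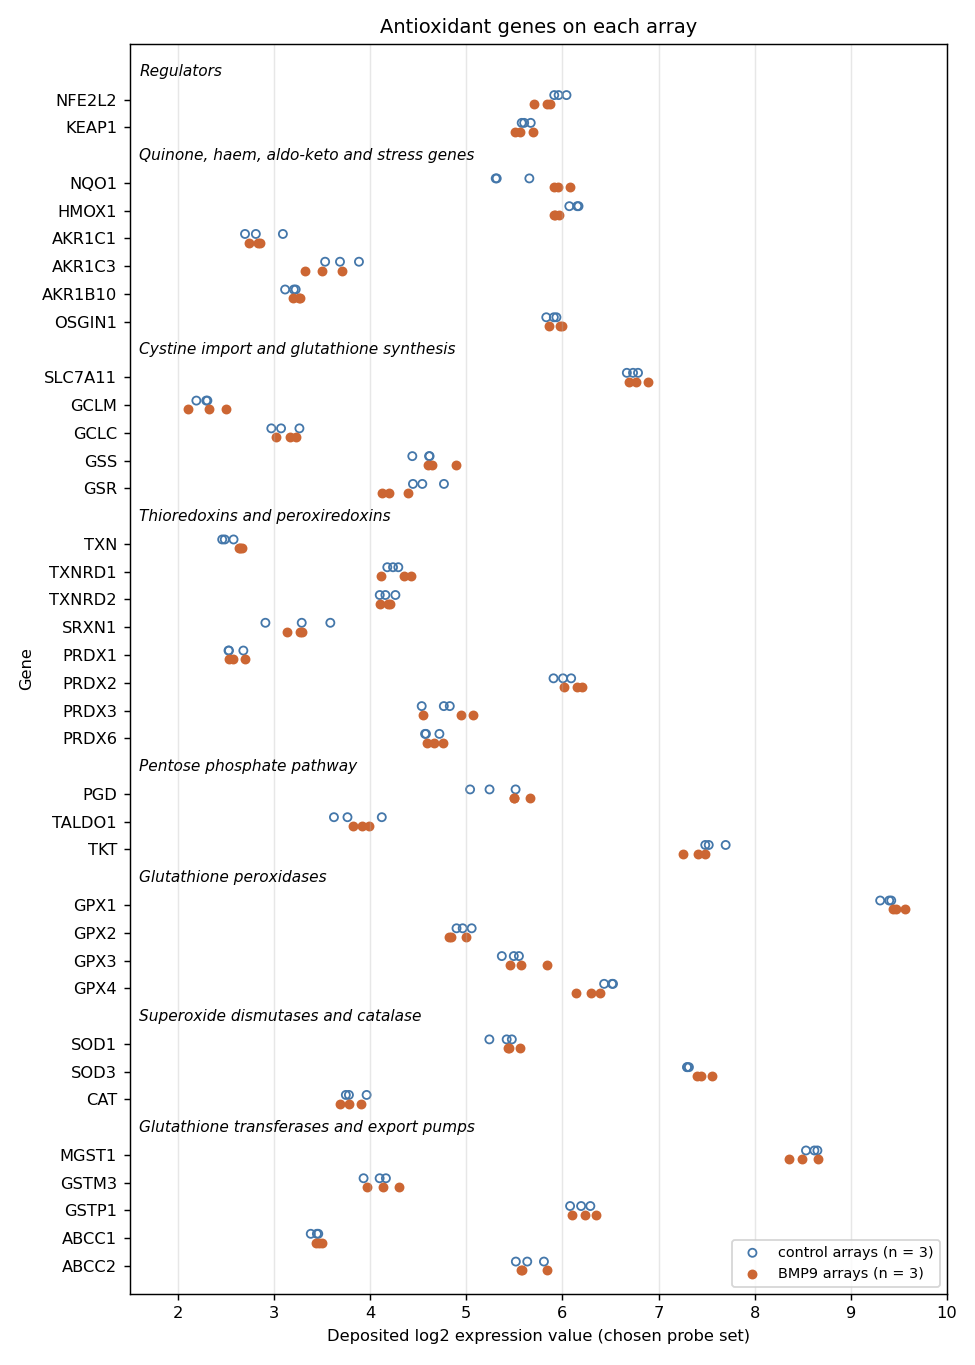
Deposited log2 value of each of the 36 measured antioxidant genes (x axis, log2) on every array, by role, with control arrays as open circles and BMP9 arrays as filled circles. The 3 BMP9 points of NQO1, at 5.91 to 6.08, lie above its 3 control points, at 5.31 to 5.66, while most genes overlap.

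Letters that match the core of the response element bound by NRF2 occur in some of these genes' promoters. RefSeq promoter windows (assembly GRCh38.p14, 250 bases before to 50 after each start) were found for 28 of the 37 genes, 41 windows in all. The 9 genes without a window include HMOX1 and SLC7A11. The core letters TGACNNNGC, searched on both strands, occurred 10 times, in 8 of the 41 windows (19.5%) and in 7 genes, beside 13.3% of all 35116 windows. For each of the 7 genes, the match nearest to its start is shown, written on the strand that carries the core, with the core in capitals and 10 bases on each side. Distances are counted to the core base furthest upstream along the gene, so the TXNRD1 core reaches its start.
KEAP1 (chr19:10502784-10502812, plus strand, 31 bases before the start): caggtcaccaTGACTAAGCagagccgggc
GCLM (chr1:93909446-93909474, plus strand, 34 bases before the start): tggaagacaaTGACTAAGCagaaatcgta
GSTP1 (chr11:67583736-67583764, plus strand, 66 bases before the start): gccggcgccgTGACTCAGCactggggcgg
TXNRD1 (chr12:104215761-104215789, minus strand, 8 bases before the start): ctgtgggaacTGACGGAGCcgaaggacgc
GPX2 (chr14:64942849-64942877, plus strand, 122 bases before the start): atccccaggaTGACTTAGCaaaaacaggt
PGD (chr1:10398853-10398881, minus strand, 201 bases before the start): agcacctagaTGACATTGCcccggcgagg
MGST1 (chr12:16347135-16347163, plus strand, 31 bases after the start): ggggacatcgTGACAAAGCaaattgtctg

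None of these 7 genes was called, with differences from -0.098 (MGST1) to 0.28 (PGD). NQO1, the gene that rose, is shown with the 250 bases before its start for comparison (chr16:69726561-69726810, minus strand), in which no letters are capitalised because its window held 0 matches to the core.
NQO1: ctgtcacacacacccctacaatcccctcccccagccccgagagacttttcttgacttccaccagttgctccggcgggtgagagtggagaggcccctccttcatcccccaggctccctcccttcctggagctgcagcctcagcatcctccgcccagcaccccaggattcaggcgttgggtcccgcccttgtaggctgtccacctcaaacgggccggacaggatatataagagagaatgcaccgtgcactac
The well-studied response element of NQO1 lies further upstream, outside this window. The letters GGCGCC, a GC-rich sequence recognised by the BMP-activated SMAD1 and SMAD5, occurred in 10 of the 41 windows (24.4%) and in 19.2% of all windows, and 0 times in the window of NQO1. A match is only a match of letters.

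NQO1 encodes a quinone reductase that uses NADPH to reduce quinones and is the most used marker gene of NRF2 activity. Its values were 5.32, 5.66 and 5.31 on the control arrays and 5.95, 5.91 and 6.08 on the BMP9 arrays. Every BMP9 array lay above every control array, and control replicate 2 stood nearest to the BMP9 arrays. The rise was 0.55 (SE 0.10), or 1.47-fold, with a limma adjusted p of 0.0482. NQO1 has a second, dimmer probe set, which read 3.82, 3.83 and 3.77 in control and 3.71, 3.93 and 3.74 with BMP9. This second probe set overlapped between the groups and differed by -0.015. When every probe set was tested on its own, the brighter NQO1 probe set had an adjusted p of 0.0593, and limma called 0 of the 89 antioxidant probe sets (9 had an unadjusted p under 0.05, beside 11.4% of all). Over all probe sets 0.436% were called, 0.133% higher and 0.302% lower. The groups did not overlap in 12 antioxidant probe sets on the higher side and 7 on the lower, beside 9.07% and 8.22% of all probe sets, 17.3% together.

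The NQO1 call ended when the replicate number entered as a block (adjusted p = 0.0859), when its probe sets were averaged (difference 0.27, adjusted p = 0.170) and when any single array other than control replicate 2 was left out (limma adjusted p 0.123 to 0.194). Without control replicate 2 the difference was 0.67 and the limma adjusted p 0.0152.

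**Figure D2:**
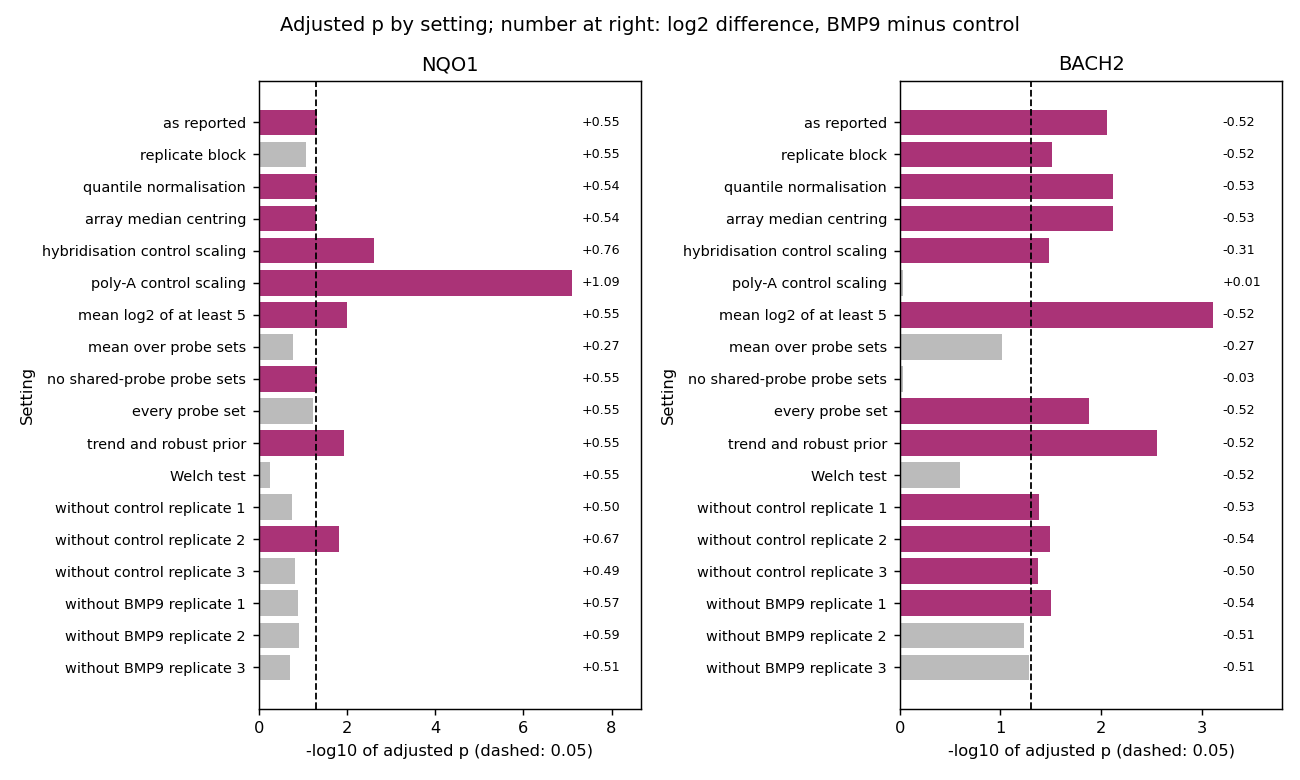
Adjusted p of NQO1 and of the repressor gene BACH2 under each setting, as -log10 (x axis, dashed line at 0.05, coloured bars past it), with the log2 difference printed at the right of each bar. The NQO1 difference stays positive in every setting drawn, from 0.27 to 1.09, or to 0.67 without the control scalings. Its adjusted p lies close to the threshold as reported (0.0482). BACH2 turns positive, at 0.013, with poly-A scaling alone.

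The regulators showed no called change. NFE2L2 read 5.92, 6.04 and 5.96 in control and 5.84, 5.88 and 5.71 with BMP9. All 3 BMP9 arrays were below all 3 control arrays, by a mean of 0.17 (SE 0.079, limma adjusted p = 0.414), and the difference turned positive with both control scalings. KEAP1, the adaptor that presents NRF2 to an E3 ubiquitin ligase, read 5.60, 5.58 and 5.67 in control and 5.50, 5.69 and 5.56 with BMP9. Its groups overlapped, and the 95% interval of its difference was -0.21 to 0.14.

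Among the other classical detoxification targets, HMOX1 had lower values with BMP9 without being called. HMOX1 encodes haem oxygenase 1, which breaks down haem to biliverdin, iron and carbon monoxide. Its chosen probe set read 6.15, 6.07 and 6.17 in control and 5.97, 5.93 and 5.91 with BMP9. The groups did not overlap, and the difference was -0.19 (SE 0.071, limma adjusted p = 0.296), positive with both control scalings. A second HMOX1 probe set of nearly the same brightness read 6.19, 6.08 and 5.81 in control and 5.97, 5.93 and 5.92 with BMP9. There the control arrays spread around the BMP9 arrays, and the difference was -0.087. The third, dimmer HMOX1 probe set differed by 0.036.

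The aldo-keto reductase genes, whose products reduce carbonyl compounds and steroids, differed by -0.059 (AKR1C1), -0.19 (AKR1C3) and 0.060 (AKR1B10). OSGIN1, an oxidative stress-induced growth inhibitor gene, differed by 0.052. All 4 overlapped between the groups. AKR1C1 has a near-identical paralog, AKR1C2, from which its probes may not separate it. AKR1C1, at a mean of 2.84, belongs with GCLM (2.29), TXN (2.58) and PRDX1 (2.59) to the 4 genes whose chosen probe set had a mean below 3. The array's 23 background probe sets, which differ in GC content, had means from 1.67 to 10.0 with a median of 2.39. The table holds no detection calls, so these 4 genes are not known to be above background here, and the lack of a call says little about them. The cut of 3 is a choice. Genes above it, such as GCLC (3.12), AKR1B10 (3.21), SRXN1 (3.25), CAT (3.81) and GSR (4.41), are open to the same doubt. Markers of other cell types, VWF (5.83) and TTR (5.73) among them, read higher than these in this stellate cell line. The values thus set no level above which a gene is known to be expressed.

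Cystine import and glutathione synthesis showed no called change in 5 of 5 genes. SLC7A11, the cystine-glutamate exchanger that supplies cysteine, read 6.67, 6.79 and 6.73 in control and 6.69, 6.77 and 6.89 with BMP9. The groups overlapped, and the 95% interval of the difference was -0.13 to 0.23. Its dimmer probe sets differed by 0.093 and -0.083. Glutamate-cysteine ligase, the rate-limiting enzyme of glutathione synthesis, has a catalytic subunit (GCLC) and a modifier subunit (GCLM). GCLM read 2.31, 2.19 and 2.30 in control and 2.50, 2.11 and 2.32 with BMP9, and GCLC read 3.26, 2.97 and 3.07 in control and 3.16, 3.23 and 3.02 with BMP9. Both overlapped, with differences of 0.045 and 0.035. The other 3 GCLC probe sets were dimmer and differed by 0.20, 0.053 and 0.27, the first of them without overlap. GSS, glutathione synthetase, differed by 0.15 (95% interval -0.061 to 0.37) and by 0.061 in its other probe set.

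GSR encodes glutathione reductase, which returns oxidised glutathione to its reduced form with NADPH. It had the largest negative difference of the 36 genes. The chosen probe set read 4.54, 4.45 and 4.77 in control and 4.13, 4.19 and 4.39 with BMP9. The BMP9 arrays lay below the control arrays, and control replicate 2 and BMP9 replicate 3 came nearest to each other. The difference was -0.35 (SE 0.10), which did not pass the test (limma adjusted p = 0.197) and turned positive with poly-A scaling. The dimmer second GSR probe set read 2.97, 2.84 and 3.01 in control and 2.63, 2.84 and 2.82 with BMP9, a difference of -0.18. Those groups met at 2.84, where they were apart by less than the printed precision.

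**Figure D3:**
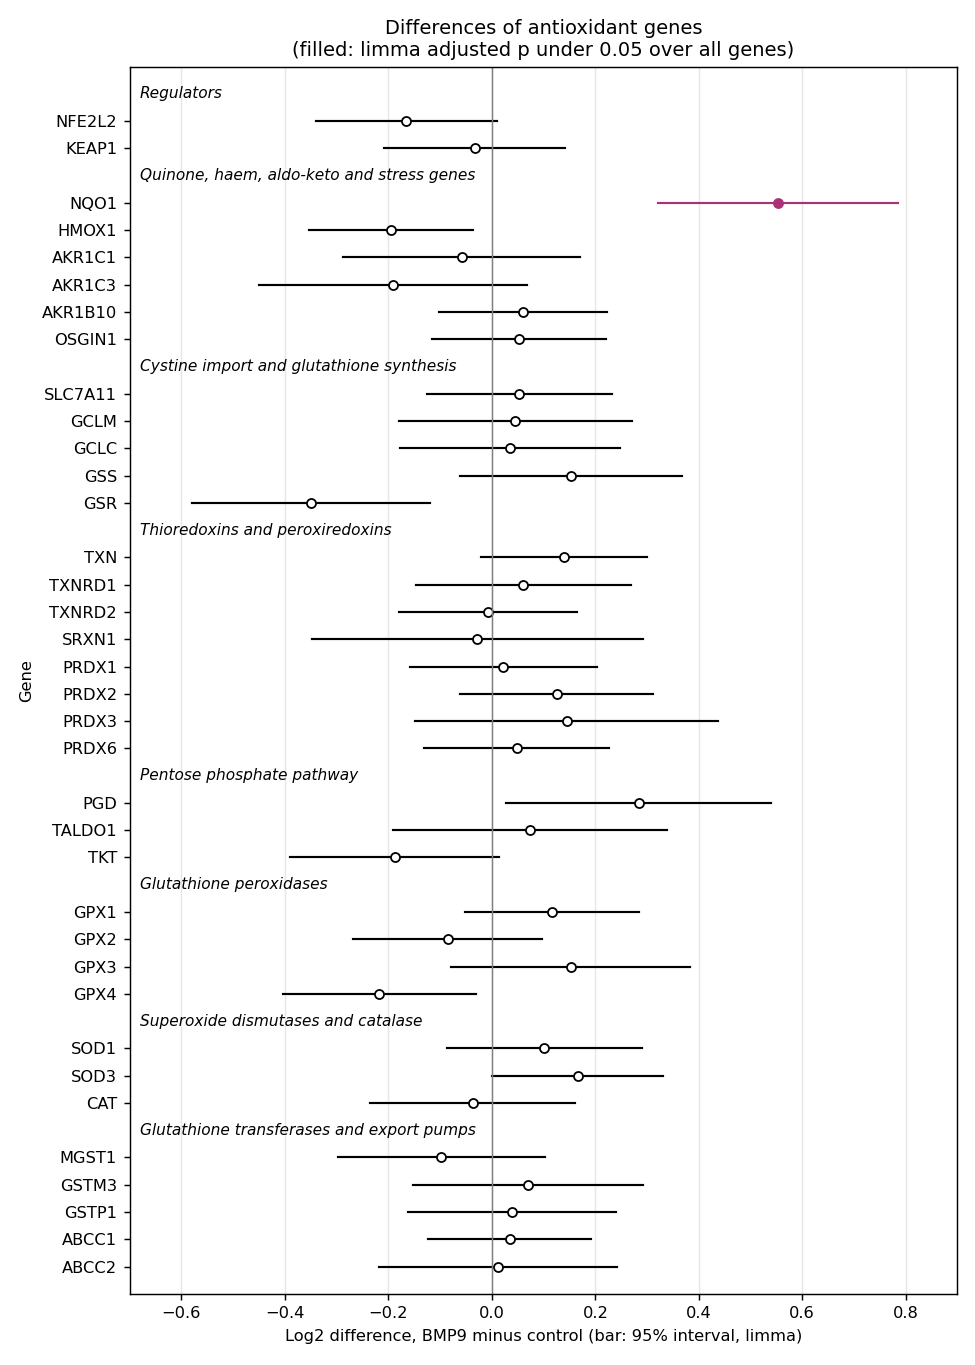
Log2 difference, BMP9 minus control, of each measured antioxidant gene (x axis, point) with its 95% interval from limma (bar), by role, n = 3 arrays per group. NQO1, at 0.55, is the filled point and the only gene called; the negative differences, GSR's -0.35 among them, turn positive with poly-A scaling.

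The thioredoxins and peroxiredoxins, which reduce protein disulfides and peroxides, held 8 measured genes and 0 called. TXN, thioredoxin, read 2.49, 2.58 and 2.46 in control and 2.63, 2.67 and 2.65 with BMP9, which did not overlap but lie in the dim range. The other 4 TXN probe sets overlapped between the groups and differed by -0.12 to 0.11. TXNRD1, the cytosolic thioredoxin reductase, read 4.24, 4.18 and 4.29 in control and 4.43, 4.36 and 4.11 with BMP9. These groups overlapped (difference 0.061), as did those of its other probe sets (0.13 and -0.033). TXNRD2, the mitochondrial reductase, differed by -0.0074, and by -0.21 without overlap in a dimmer probe set (limma adjusted p = 0.471). SRXN1, which repairs over-oxidised peroxiredoxins, differed by -0.028. SRXN1 had the widest spread within control of the 36 genes (SD 0.34, n = 3).

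PRDX2 is a cytosolic peroxiredoxin. All 5 of its probe sets had the higher mean with BMP9, by 0.11 to 0.34, and in 4 of the 5 the groups did not overlap. The exception was the chosen one, which read 6.01, 5.91 and 6.09 in control and 6.21, 6.02 and 6.15 with BMP9. Another, the fourth by brightness, read 4.94 to 5.12 in control and 5.40, 5.30 and 5.37 with BMP9. That difference of 0.34 (SE 0.081) was not called over all probe sets (limma adjusted p = 0.140), but was called when only probe sets with a mean of at least 5 were tested (limma adjusted p = 0.0221). Probe sets of 1 gene can share target sequence, so these are not 5 independent measurements. The other peroxiredoxin genes differed by 0.022 (PRDX1), 0.14 (PRDX3, mitochondrial) and 0.048 (PRDX6), all with overlapping groups. The second PRDX3 probe set, nearly as bright, differed by -0.16, also with overlap.

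**Figure D4:**
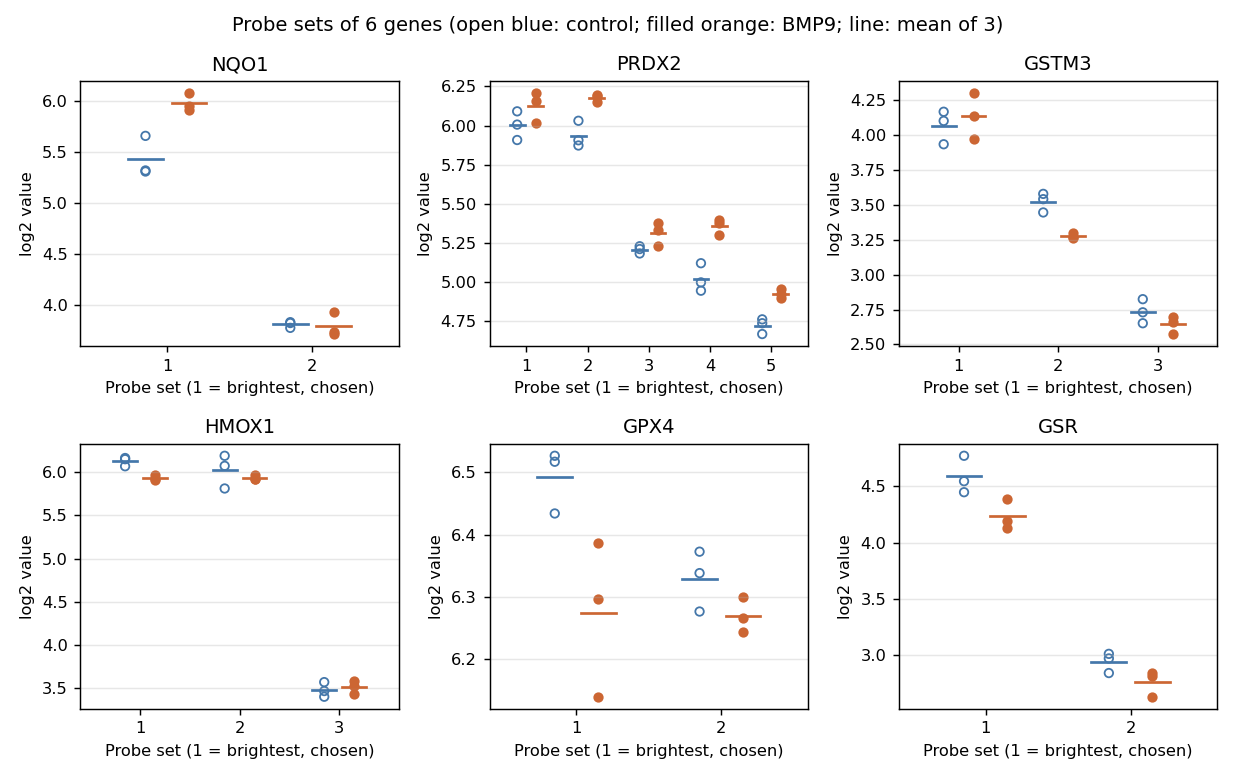
Log2 values (y axis, a separate scale per panel that does not start at 0) of every probe set of 6 antioxidant genes, ordered from brightest to dimmest, with control arrays open, BMP9 arrays filled and lines at the means of 3. NQO1 separates in its brighter probe set only, whereas all 5 PRDX2 probe sets have the higher mean with BMP9.

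The pentose phosphate pathway supplies NADPH to both reductases. PGD, 6-phosphogluconate dehydrogenase, which yields NADPH, read 5.51, 5.24 and 5.04 in control and 5.66, 5.49 and 5.50 with BMP9. Control replicate 1 fell among the BMP9 arrays. The difference was 0.28 (SE 0.12, limma adjusted p = 0.340), and 0.042 in the second probe set. The transaldolase gene TALDO1 differed by 0.073. The transketolase gene TKT differed by -0.19 in its chosen probe set and by -0.17 and -0.13 in the others, with overlap between the groups in all 3; its chosen value turned positive with both control scalings.

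The glutathione peroxidases GPX1 to GPX4 are selenoproteins that use glutathione to reduce peroxides. GPX1, the main cytosolic form, read 9.30, 9.42 and 9.40 in control and 9.56, 9.47 and 9.44 with BMP9. The groups did not overlap, and neither did those of its second probe set, but the difference was 0.12 and not called (limma adjusted p = 0.561). GPX4, which protects membrane lipids from peroxidation and so from ferroptosis, read 6.53, 6.52 and 6.43 in control and 6.39, 6.14 and 6.30 with BMP9. All BMP9 arrays were lower, by a mean of 0.22 (SE 0.084, limma adjusted p = 0.317), a direction that turned with poly-A scaling. The second GPX4 probe set, nearly as bright, differed by -0.059 with overlapping groups. GPX2, the gastrointestinal form, differed by -0.086 and GPX3, the secreted form, by 0.15.

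Superoxide dismutases convert superoxide to hydrogen peroxide, which catalase removes. SOD3, the extracellular form, read 7.30, 7.30 and 7.32 in control and 7.40, 7.44 and 7.56 with BMP9. The control arrays lay close together (SD 0.011, n = 3) and the BMP9 arrays above them. The difference was 0.17 (SE 0.074, n = 3 per group, limma adjusted p = 0.387), and 0.095 without overlap in the second probe set. SOD1, the cytosolic form, read 5.47, 5.42 and 5.24 in control and 5.45, 5.56 and 5.43 with BMP9. CAT read 3.78, 3.75 and 3.96 in control and 3.78, 3.90 and 3.69 with BMP9. Both overlapped, with differences of 0.10 and -0.037.

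The glutathione transferases attach glutathione to electrophiles, and the ABCC pumps export the conjugates. GSTP1 read 6.29, 6.19 and 6.08 in control and 6.10, 6.24 and 6.35 with BMP9. Its groups overlapped, and the 95% interval of its difference was -0.16 to 0.24. MGST1, the membrane-bound form, differed by -0.098 and turned positive with both control scalings. Its dimmer probe sets differed by 0.15 and -0.068, with overlapping groups. GSTM3 differed by 0.070 in its chosen probe set. A dimmer GSTM3 probe set read 3.58, 3.54 and 3.44 in control and 3.30, 3.26 and 3.27 with BMP9, without overlap, a difference of -0.24 (limma adjusted p = 0.263, probe sets tested singly). The 2 brightest GSTM3 probe sets thus differed in sign, as did some pair of probe sets in 14 of the 32 genes with more than 1. ABCC1 differed by 0.035 and ABCC2 by 0.012, with overlapping groups. A dimmer ABCC1 probe set differed by 0.16 without overlap (limma adjusted p = 0.471).

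Other genes of the same pathway were taken from a list of 69, of which 59 were measured. One of the 59, BACH2, was called and fell, and 0 rose, beside 0.684% of all genes called. The median difference was 0.020, beside 0.014 over all genes. Groups did not overlap in 16 of the 59 genes (27.1%), 6 higher and 10 lower, beside 18.8% of all genes (10.3% higher and 8.49% lower). An unadjusted p under 0.05 was found for 15 of the 59 genes (25.4%) and 12.9% of all genes.

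BACH2 encodes a repressor that pairs with small MAF proteins on elements closely related to the antioxidant response element. It read 5.38, 5.36 and 5.44 in control and 4.91, 4.86 and 4.86 with BMP9. The groups were far apart compared with their spread, and the fall was 0.52 (SE 0.071, limma adjusted p = 0.00868). With poly-A scaling the BACH2 difference was 0.013. The second BACH2 probe set, at 2.55 in control, differed by -0.025 and is not known to be above background. The call was lost without the probe sets marked as sharing probes with other transcripts (-0.025) or the BACH2 probe sets averaged (-0.27, limma adjusted p = 0.0974). Leaving out BMP9 replicate 2 or 3 also ended it (adjusted p = 0.0582 and 0.0525).

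The next 6 genes by p-value did not pass. GSTT1, a glutathione transferase gene, read 5.31, 5.26 and 5.23 in control and 5.57, 5.67 and 5.77 with BMP9. It lay just outside the threshold, with a difference of 0.41 (SE 0.079, limma adjusted p = 0.0555). GSTT1 was called in 5 of 17 alternatives, including both control scalings, and in 3 of 15 without those scalings. Among genes with a mean of at least 5 its limma adjusted p was 0.00934, and with averaged probe sets 0.0374. An intensity trend and robust prior gave a limma adjusted p of 0.0208. GSTT1 has 1 probe set, so averaging left its own values unchanged. It was not called with the replicate block (limma adjusted p = 0.113) or with any single array left out (limma adjusted p 0.0747 to 0.215). UGDH, which makes UDP-glucuronate, read 7.85, 7.55 and 7.53 in control and 7.82, 8.21 and 8.20 with BMP9. Control replicate 1 stood above BMP9 replicate 1, and the difference of 0.43 was not called (limma adjusted p = 0.186). UGDH was called among genes with a mean of at least 7 (limma adjusted p = 0.0181), as was IDH1 (limma adjusted p = 0.0126). Outside the control scalings, neither was called in any other alternative. With single arrays left out, the limma adjusted p was 0.0972 to 0.444 (UGDH) and 0.251 to 0.478 (IDH1). The other UGDH probe set, at 1.90 in control, differed by 0.0079. The efflux pump gene ABCC4 differed by -0.28, the peroxidase gene GPX8 by -0.28, the thioredoxin-binding gene TXNIP by -0.26 and the NADP-dependent isocitrate dehydrogenase gene IDH1 by -0.25. In the chosen probe set of these 4 genes all BMP9 arrays were lower on the deposited scale, and all 4 differences turned positive with poly-A scaling. With averaged probe sets the differences were -0.024 (ABCC4), -0.18 (GPX8), -0.039 (TXNIP) and -0.0042 (IDH1), and UGDH was at 0.22. A far dimmer IDH1 probe set was higher without overlap (0.16), 2 of the other 3 ABCC4 probe sets differed by 0.16 and 0.082, and the other TXNIP probe sets differed by -0.017 to 0.076. ABCC4, at 2.74 in control, and GPX8, at 2.57, are not known to be above background.

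**Figure D5:**
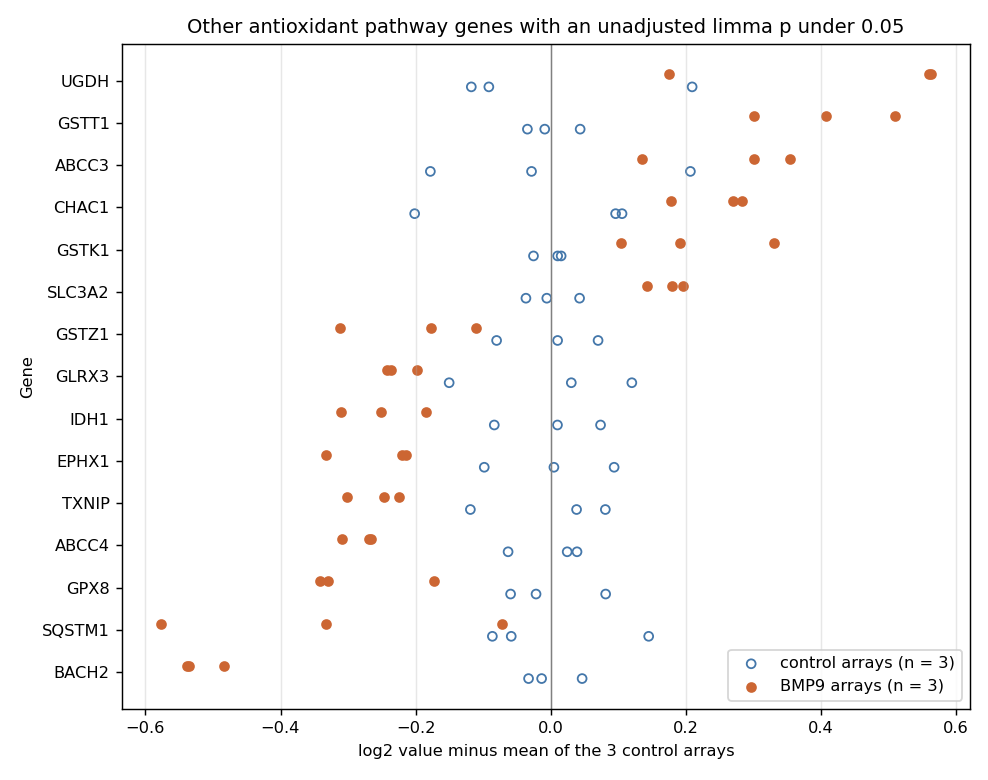
Log2 value minus the mean of the 3 control arrays (x axis) for the 15 other antioxidant pathway genes with an unadjusted limma p under 0.05, with control arrays open and BMP9 arrays filled. BACH2 has the lowest BMP9 mean, 0.52 below control, and is the only one called; the negative differences drawn are on the deposited scale, and poly-A scaling adds enough to turn even that of BACH2 positive.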

How the data were processed

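Expression was measured on 6 arrays, 3 control and 3 BMP9. The deposited log2 values per probe set were made by the authors with RMA, per the submitters' processing notes. Its software and settings were not given in the sources used here, so the log base was taken from the range of the values. RMA normalises by quantiles, which removes most of a change shared by all transcripts. The table held 49395 probe sets, of which 102 were array controls, 44988 carried 1 gene symbol, 1832 several and 2473 none.

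Each of 18132 genes was represented by its brightest single-gene probe set and tested in limma 3.58.1 under R 4.3.3 (lmFit and eBayes, no covariate). The code was run on data simulated with the fit's own variances and independent noise, which cannot show whether the model suits these arrays. Spiked controls were 18 hybridisation and 24 poly-A probe sets. The number of arrays limits the precision; the median SE was 0.087. Every antioxidant gene is named. Values on each array are given for genes with an unadjusted p under 0.05, or with groups apart by at least 0.2 without overlap, and for the genes that head each role. Further probe sets are described where their unadjusted p was under 0.01 or, by a choice made after their values were seen, where their groups did not overlap, with some others for context. Of the other pathway genes, those called and the next 6 by p are named. The genes, lists and tests were chosen with earlier results of these data known. Same-numbered samples of the groups did not deviate together (r from -0.021 to 0.046), so the replicate number was no block. Alternatives were other scalings, filters, probe set rules, priors, a Welch test, the block and leaving out each array. Figures were drawn with matplotlib 3.10.9.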

Additional observations from a re-analysis of the deposited data

How the results depend on the processing

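The NQO1 difference kept its sign under all 17 alternatives (0.27 to 1.09) and was called in 8 of them. Without the control scalings, which add a positive shift to every gene, it was called in 6 of 15, at 0.27 to 0.67. The setting that took the probe set of smallest p used the brighter NQO1 probe set, while the dimmer one differed by -0.015. The count of antioxidant genes called was 1 as reported and 0 with the replicate block, a minimum mean log2 of 7 (which left NQO1 out), averaged probe sets, every probe set on its own and the Welch test; it was 9 with hybridisation scaling, 34 with poly-A scaling and 0 to 1 with single arrays left out. No other antioxidant gene was called outside the control scalings. The count over all genes was 124 as reported, 94 with the replicate block, 4915 with hybridisation scaling, 16912 with poly-A scaling, 267 and 247 with a minimum mean of 5 and 7, 285 with an intensity trend and robust prior, 0 with the Welch test (2334 genes had an unadjusted limma p under 0.05) and 54 to 78 with single arrays left out. Of the other pathway genes 1 was called as reported, 17 with hybridisation scaling, 50 with poly-A scaling, 2 and 3 with a minimum of 5 and 7, 2 with the trend, 0 with the Welch test or without shared-probe probe sets, and 0 to 1 with arrays left out. Of the 89 antioxidant probe sets, 20, 84, 2 and 1 were called with hybridisation scaling, poly-A scaling, a minimum of 5 and the trend, and 0 to 1 with arrays left out; otherwise 0. The replicate block ended the NQO1 call and not that of BACH2 (adjusted p = 0.0309).

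Signs turned in 28 of the 43 genes named, in 12 of them with the control scalings alone. With poly-A scaling the differences were 0.37 (NFE2L2), 0.50 (KEAP1), 0.34 (HMOX1), 0.18 (GSR), 0.52 (TXNRD2), 0.50 (SRXN1), 0.34 (TKT), 0.47 (AKR1C1), 0.34 (AKR1C3), 0.45 (GPX2), 0.31 (GPX4), 0.49 (CAT), 0.43 (MGST1), 0.013 (BACH2), 0.25 (ABCC4), 0.25 (GPX8), 0.27 (TXNIP) and 0.28 (IDH1). With hybridisation scaling they were 0.046 (NFE2L2), 0.18 (KEAP1), 0.017 (HMOX1), 0.20 (TXNRD2), 0.18 (SRXN1), 0.024 (TKT), 0.15 (AKR1C1), 0.020 (AKR1C3), 0.13 (GPX2), 0.17 (CAT) and 0.11 (MGST1). These scalings add a shift to every gene. With averaged probe sets GCLM was at -0.0089, PRDX3 at -0.0072 and GSTM3 at -0.089. With the probe set of smallest p, GCLM was at -0.063, SLC7A11 at -0.083, PRDX3 at -0.16, MGST1 at 0.15 and GSTM3 at -0.24; these are other probe sets. Leaving out single arrays gave ranges that crossed 0 for KEAP1 (-0.087 to 0.0079), GCLM (-0.050 to 0.15), GCLC (-0.031 to 0.12), TXNRD1 (-0.0048 to 0.16), TXNRD2 (-0.044 to 0.037), SRXN1 (-0.20 to 0.13), SLC7A11 (-0.0023 to 0.099), TALDO1 (-0.033 to 0.22), AKR1C1 (-0.14 to 0.054), ABCC2 (-0.077 to 0.090), PRDX1 (-0.026 to 0.073), CAT (-0.093 to 0.029), GSTM3 (-0.012 to 0.15) and GSTP1 (-0.020 to 0.10). The cause of the other changes was not tested. Dim probe sets limit what can be said of GCLM, TXN, AKR1C1 and PRDX1. The same doubt extends to brighter genes, such as GCLC, AKR1B10, SRXN1, CAT and GSR, since no level was known to mark expression.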
